A study of Mus musculus with 18 samples.

Results

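Mouse primary preadipocytes, the fibroblast-like precursors of fat cells, were sorted by the authors for high or low surface integrin alpha 5 (CD49e, the product of Itga5), put through adipogenic differentiation in culture, and sequenced as poly(A) RNA. The comparison described here takes the 3 libraries labelled Itga5-High and the 3 labelled Itga5-Low, 6 of the 18 libraries of the series, chosen by those labels alone. Both groups were wild type and had been differentiated, so they shared everything the labels give except the sort gate. The fat depot, diet, sex and age of the donor mice, the width of the gates and the days of differentiation are not given for these cells in the sources used here. The labels also do not say whether the 3 libraries of a group were separate animals or cultures. The other groups used below for context were undifferentiated wild-type preadipocytes of epididymal fat: mock-treated cells from mice fed a control diet (CD mock), control-diet cells given TGF-b1 (CD TGF-b1), and mock-treated cells from mice fed a high-fat diet (HFD mock), each with 3 libraries and none labelled as differentiated. The 3 libraries of control-diet cells given TGF-b1 with SB431542 entered only the joint fit of the undifferentiated groups and are not compared here.

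Integrin alpha 5 pairs with integrin beta 1 to form the main fibronectin receptor of stromal cells, which ties the cell to its matrix and to tension in it. Adipogenesis runs through C/EBP factors and PPARg, the nuclear receptor that switches on the genes of lipid storage, insulin-stimulated glucose uptake and adipokine secretion. Precursors that keep dividing, or that turn towards matrix production, are the known alternatives to that fate. The comparison asked how cells that had entered differentiation with high surface integrin alpha 5 differed from those that had entered it with low levels.

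Levels are in CPM, a gene's counts per 1e+06 counts of the library after TMM scaling. Differences are log2 fold changes, Itga5-High minus Itga5-Low, ± an SE. The SE is the absolute log2 fold change divided by the square root of edgeR's quasi-likelihood F statistic. It was taken from a fit with a lower limit on the dispersions, whereas the differences and p-values come from the main fit. A gene is called where its Benjamini-Hochberg adjusted p over all genes tested is under 0.05. Total counts were 12043443 to 16721730 in the Itga5-High libraries and 15944190 to 17288608 in the Itga5-Low libraries. Within a group, libraries differed by little more than counting noise (chi-square per degree of freedom 1.21 to 1.25), so p-values measure a spread that may be purely technical and very small differences passed the test.

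Very many genes differed, most of them by little. Of 13468 genes tested, 7199 were called (53.5%), of which 3635 (27.0%) were higher and 3564 (26.5%) lower in Itga5-High cells. The gene lists below were chosen with earlier results of these data known. Their counts are descriptions, to be read beside these shares. In 7844 genes (58.2%) every library of one group lay above every library of the other. The median absolute difference of the called genes was 0.29 log2, and the median over all tested genes was -0.0033 log2. At least 2-fold differences were called for 555 genes (4.12%), 274 higher (2.03%) and 281 lower (2.09%). Tested against a fold of 1.2 rather than against no difference (edgeR's glmTreat), 2327 genes (17.3%) were called, 8.64% higher and 8.64% lower.

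**Figure D1:**
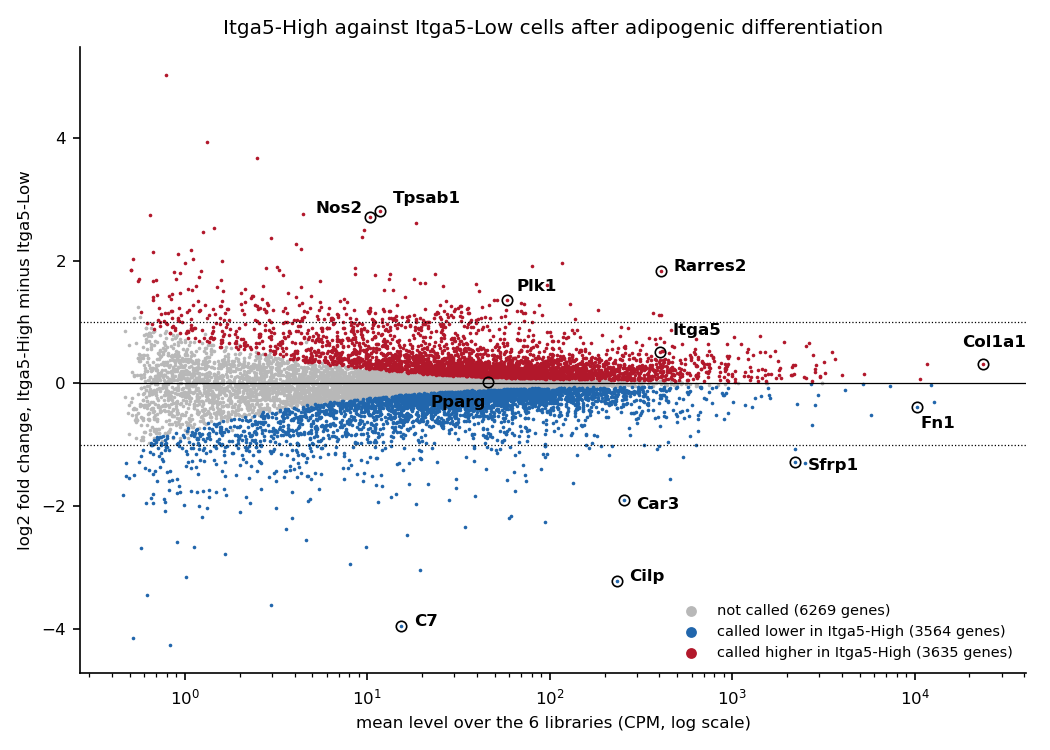
Log2 fold change (Itga5-High minus Itga5-Low) of each of the 13468 tested genes against its mean level over the 6 libraries (CPM, log axis); red and blue points are called genes, grey points are not called, and the dotted lines mark 2-fold. Most called genes lie between the dotted lines, while Cilp, C7 and Car3 lie far below and Rarres2, Nos2 and Tpsab1 far above.

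Itga5 RNA was higher after differentiation in the cells sorted for high surface protein. Itga5 (chr15:103344286-103366792, minus strand) was at 461, 478 and 476 CPM in the Itga5-High libraries and at 325, 329.8 and 334 CPM in the Itga5-Low libraries. All 3 Itga5-High libraries lay above all Itga5-Low libraries, a difference of 0.52 ± 0.017 log2, or 1.43-fold. Itgb1, its partner chain, differed by only 0.07 ± 0.011 log2 (1061 ± 8.51 against 1014 ± 5.11 CPM), and that call was lost when libraries were scaled by total counts. Fn1, the fibronectin ligand, ran the other way, at 8889, 8956 and 8928 against 11702, 11631 and 11594 CPM in the Itga5-High and Itga5-Low libraries, or -0.38 ± 0.0058 log2. Among the 18 integrin subunits tested, 7 were higher, against 27.0% of all genes, and 6 lower, against 26.5% (median 0.00097 log2). The largest differences were those of low subunits, Itgb7 (1.73 against 0.587 CPM, 1.58 ± 0.34 log2) and Itga2 (3.46 against 1.42 CPM, 1.29 ± 0.22 log2), both higher and named after their values were seen. Besides Itga5, the higher subunits above 10 CPM were Itgav and Itgb1, whereas the laminin and collagen receptor chains Itga1 (22.02 against 41.3 CPM, -0.91 ± 0.059 log2) and Itga6 (11.3 against 19.9 CPM, -0.82 ± 0.088 log2) and the tenascin receptor chain Itga9 (-0.55 ± 0.053 log2) were lower.

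The 15 largest higher values described here are those of called genes with non-overlapping libraries and a mean of at least 10 CPM in Itga5-High cells. Rarres2 (chr6:48569696-48572803), which encodes the adipokine chemerin, was at 636, 647 and 635 CPM in the Itga5-High libraries and at 180.5, 181 and 177 CPM in the Itga5-Low libraries. That is 3.56-fold higher (1.83 ± 0.017 log2) with no overlap. A2m, the broad protease inhibitor alpha-2-macroglobulin, was at 191, 188 and 182 against 50.2, 45.4 and 48.5 CPM in Itga5-High and Itga5-Low libraries (1.96 ± 0.033 log2). Lrg1, a secreted leucine-rich glycoprotein, was at 129, 123 and 129 against 33.99, 33.4 and 33.9 CPM (1.91 ± 0.039 log2). These 3 genes stood at 3.56 to 3.90 times their Itga5-Low level.

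At lower levels, Nos2 (chr11:78920787-78960227), the inducible nitric oxide synthase, was at 16.99, 18.2 and 18.9 against 2.72, 2.57 and 2.91 CPM, a 6.55-fold difference (2.71 ± 0.12 log2, adjusted p = 2.03e-19 by edgeR). Tpsab1, a tryptase known from mast cells, was at 20.5, 21.5 and 20.3 against 2.79, 3.48 and 2.55 CPM (2.81 ± 0.11 log2). Gipr, the receptor for the gut hormone GIP, was at 14.3, 13.7 and 12.2 against 3.28, 3.71 and 3.95 CPM (1.88 ± 0.12 log2). All of these are low levels whose groups nevertheless stood well apart. Notch4 (1.78 log2, 36.5 against 10.6 CPM) and Adgrf5, an adhesion G protein-coupled receptor (1.64 log2, 31.3 against 10.04 CPM), are both known from endothelium. The carbonic anhydrases Car4 (2.38 log2) and Car9 (1.77 log2) were higher too.

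The remaining 5 of the 15 belong to families of near-identical genes, in which the division of reads between copies is uncertain: the MHC class I genes H2-Q10 (2.62 log2), H2-Q6 (1.78 log2) and H2-Q7 (1.71 log2), the proliferin gene Prl2c4 (1.78 log2) and the histone gene H2ac24 (2.50 log2). Endothelial markers as a list did not move with Notch4 and Adgrf5: of 8 tested, 1 was higher and 2 were lower, and their summed level was 50.3 to 53.5 CPM in Itga5-High and 52.9 to 54.7 CPM in Itga5-Low libraries. Only 1 stayed lower with DESeq2 and without any single library other than Itga5-Low library 1.

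The 15 largest lower values were taken in the same way, with at least 10 CPM in Itga5-Low cells. Cilp (chr9:65265180-65280615), a matrix protein first known from cartilage, was at 43.7, 46.7 and 45.8 CPM in the Itga5-High libraries and at 427, 416 and 427 CPM in the Itga5-Low libraries. It was 9.35-fold lower in Itga5-High cells (-3.23 ± 0.027 log2), and both of its transcripts shared the difference. Comp, the cartilage oligomeric matrix protein, was at 32.6, 33.4 and 32.9 against 155, 162 and 153 CPM in Itga5-High and Itga5-Low libraries (-2.25 ± 0.039 log2). Lum, the collagen-binding proteoglycan lumican, was at 5.64, 6.49 and 5.54 against 19.9, 22.6 and 20.9 CPM (-1.85 ± 0.097 log2), and Egfl6, another matrix protein, at 5.04, 4.97 and 5.21 against 28.6, 27.8 and 28.2 CPM (-2.47 ± 0.090 log2).

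C7 (chr15:4988762-5063774), a component of the terminal complement complex, was at 2.19, 1.43 and 1.82 against 28.6, 28.6 and 29.7 CPM. Its difference of -3.96 ± 0.12 log2, or 15.6-fold, was the most negative of the genes named by size. Car3, a carbonic anhydrase abundant in mature fat cells, was at 106, 109.7 and 107 against 392, 405 and 409 CPM (-1.91 ± 0.023 log2). Scara5, a ferritin receptor, was at 19.6, 23.4 and 21.8 against 98.5, 98.98 and 97.4 CPM (-2.20 ± 0.049 log2). None of these groups overlapped.

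Pi16, which marks an early fibroblast progenitor of fat tissue, was at 2.43, 2.19 and 3.48 against 16.8, 17.5 and 16.5 CPM (-2.66 ± 0.13 log2). Cd34, a surface sialomucin of progenitors, was at 11.4, 12.9 and 11.6 against 43.6, 46.01 and 43.9 CPM (-1.90 ± 0.068 log2). Clec3b, or tetranectin, was at 10.6, 11.1 and 12.6 against 57.9, 57.2 and 57.9 CPM (-2.34 ± 0.064 log2). The other 5 were Scg2, a secretory granule protein (-3.04 log2), the guidance ligand Sema3d (-2.94 log2), the secreted protein Ism1 (-2.16 log2), the BMP antagonist Chrdl1 (-1.97 log2) and the retinoic acid synthesis enzyme Aldh1a2 (-1.94 log2). As a list, preadipocyte and fibroblast progenitor markers split: of 10 tested, 3 were higher (Ly6a 0.25, Thy1 0.37 and Dlk1 0.56 log2) and 5 lower, and their summed level was 2733 to 2774 CPM in Itga5-High and 2520.0 to 2544 CPM in Itga5-Low libraries.

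**Figure D2:**
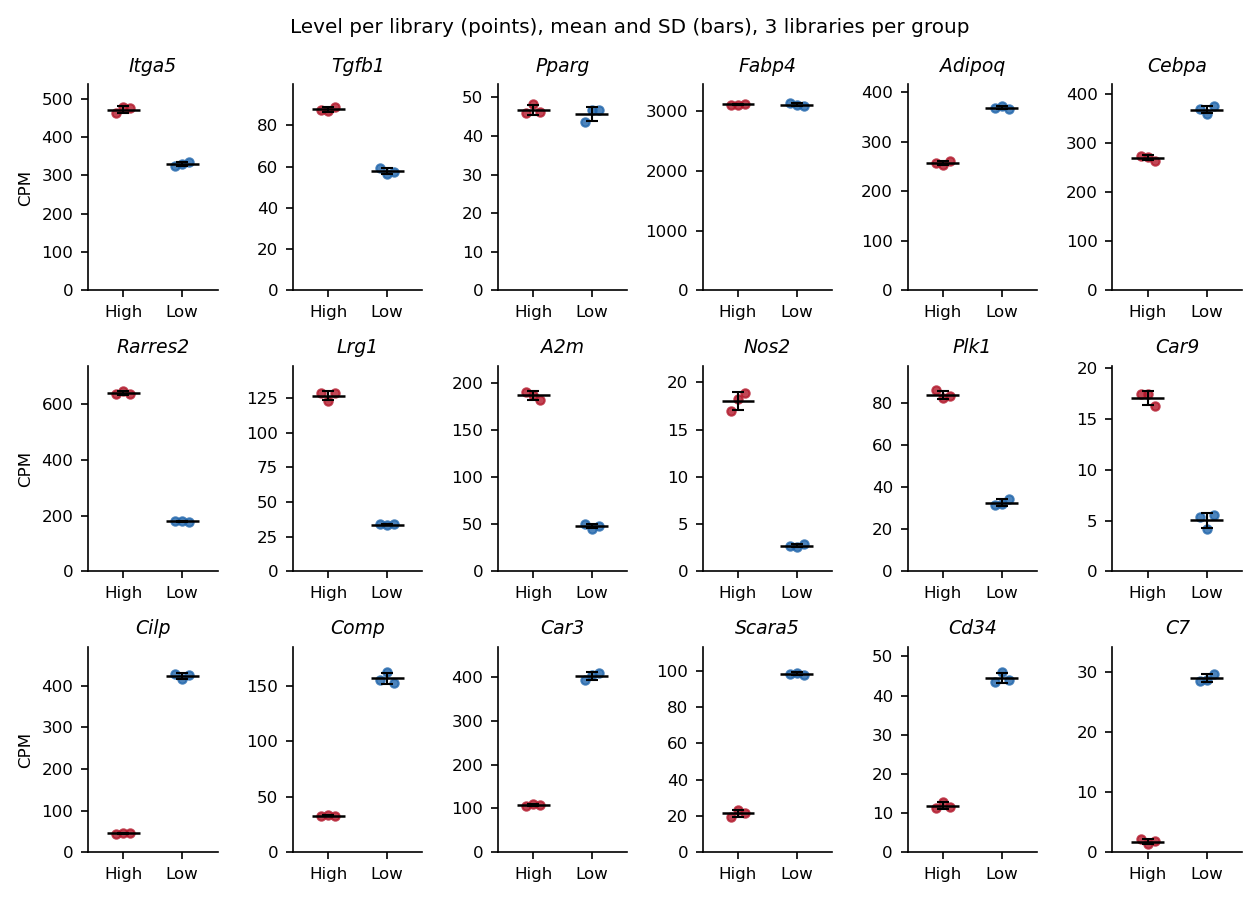
Level of 18 genes in each of the 6 libraries (CPM, linear axes from 0); points are libraries, black bars the mean and SD of 3 libraries. Pparg and Fabp4 overlap between the groups, and the other 16 genes do not.

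Cell division genes were higher throughout in Itga5-High cells. All 28 genes of the cell cycle list were called higher, against 27.0% of all genes, with a median of 0.89 log2. For each of the 28, every Itga5-High library lay above every Itga5-Low library. Such full separation, in either direction, was seen in 58.2% of all genes. The list was chosen with earlier results of these data known, so its counts are a description and not an independent test. Plk1 (chr7:122159435-122169885), a kinase of mitotic entry and spindle assembly, was at 85.9, 81.96 and 82.996 CPM in the Itga5-High libraries and at 31.3, 31.9 and 34.4 CPM in the Itga5-Low libraries (1.37 ± 0.045 log2). Cdc20, the activator of the anaphase-promoting complex, was at 101, 103 and 105 against 42.8, 40.5 and 42.01 CPM (1.30 ± 0.040 log2). Birc5, or survivin, was at 60.5, 59.2 and 60.7 against 26.9, 25.3 and 23.7 CPM (1.25 ± 0.052 log2), and Ccnb2, a mitotic cyclin, at 50.3, 48.01 and 52.96 against 21.6, 21.95 and 20.6 CPM (1.24 ± 0.057 log2).

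The sizes differed by the role of the genes. The 12 members past 2-fold were genes of mitosis and its approach, from Bub1 at 1.01 log2 to Plk1, and they included the proliferation marker Mki67 (1.19 log2), named after its value was seen like the other range ends here. The replication licensing genes Mcm2 to Mcm7 lay between 0.45 log2 (Mcm4) and 0.94 log2 (Mcm5), and Pcna at 0.70 log2. The D-type cyclins, which act earliest, differed least, with Ccnd1 at 0.25, Ccnd3 at 0.08 and Ccnd2 at 0.05 log2. When libraries were scaled by total counts, 26 of the 28 stayed called higher and none was called lower. Against a fold of 1.2, 23 stayed higher and 0 were lower, beside 8.64% of all genes each way.

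Promoters of mitotic genes often carry CCAAT boxes, bound by NF-Y, and the cell cycle homology region (CHR), bound by the DREAM and MuvB complexes. The 3 cell cycle promoters below are those of the listed genes with the largest differences. Each run is the 250 bases before the RefSeq start (build GRCm38.p6, gene strand, 5′ to 3′), with CCAAT and the CHR letters TTTGAA or TTCGAA in capitals on either strand. They are Plk1 at chr7:122159185-122159434 on the plus strand, Cdc20 at chr4:118437344-118437593 on the minus strand, and Birc5 at chr11:117848987-117849236 on the plus strand.
Plk1: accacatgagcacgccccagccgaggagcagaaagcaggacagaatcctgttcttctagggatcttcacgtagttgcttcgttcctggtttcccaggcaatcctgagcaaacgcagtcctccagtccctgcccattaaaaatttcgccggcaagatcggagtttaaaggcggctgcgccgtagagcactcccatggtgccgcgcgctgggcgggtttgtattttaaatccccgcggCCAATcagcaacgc
Cdc20: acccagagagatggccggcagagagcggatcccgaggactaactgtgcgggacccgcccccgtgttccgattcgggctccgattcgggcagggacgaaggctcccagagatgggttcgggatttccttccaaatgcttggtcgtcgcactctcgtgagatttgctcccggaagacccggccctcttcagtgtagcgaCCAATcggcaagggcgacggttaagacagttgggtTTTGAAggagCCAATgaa
Birc5: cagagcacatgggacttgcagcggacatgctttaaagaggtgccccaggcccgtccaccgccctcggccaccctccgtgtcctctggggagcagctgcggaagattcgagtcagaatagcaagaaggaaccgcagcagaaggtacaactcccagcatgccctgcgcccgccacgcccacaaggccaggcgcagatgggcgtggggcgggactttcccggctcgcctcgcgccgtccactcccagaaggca

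The Plk1 window held 1 match, a CCAAT box, the Cdc20 window 2 CCAAT boxes and a CHR between them, and the Birc5 window none of these letters. Of the 28 listed genes, 22 matched the promoter table by symbol, and 17 of them (77.3%) held CCAAT, against 37.1% of the 10635 tested genes with a window. A CHR was present in 7 of 22 (31.8%), against 12.3%, and both motifs in the same window in 7 (31.8%), against 4.98%. The list's shares are fixed by which genes it holds, so they are not evidence from these libraries. Of 203 windows of genes at least 2-fold higher in Itga5-High cells, 44.8% held CCAAT, 22.2% a CHR and 13.3% both. That set of 274 genes includes 12 of the cell cycle list. These are letter matches in a fixed window, not measured binding.

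Glycolytic enzymes and hypoxia-responsive genes were also mostly higher. Of 21 tested, 18 were called higher, against 27.0% of all genes, and 2 lower, against 26.5%. The median was 0.41 log2. Against a fold of 1.2, 14 stayed higher and 1 lower, beside 8.64% of all genes each way. Car9 (chr4:43507026-43513726), the cell-surface carbonic anhydrase induced by low oxygen, was at 17.5, 17.4 and 16.3 CPM in the Itga5-High libraries and at 5.32, 4.16 and 5.58 CPM in the Itga5-Low libraries (1.77 ± 0.11 log2, adjusted p = 1.84e-15 by edgeR). Egln3, an oxygen-sensing prolyl hydroxylase, was at 133, 129 and 125 against 74.7, 70.1 and 71.9 CPM (0.84 ± 0.034 log2). Slc16a3, the lactate exporter MCT4, was at 439.7, 439 and 439.6 against 263, 261 and 265 CPM (0.74 ± 0.017 log2), and Pfkp, a phosphofructokinase, at 212, 206 and 203 against 134, 130.2 and 131 CPM (0.65 ± 0.025 log2). Among late steps of the pathway, named after their values were seen, Ldha differed by 0.53, Eno1 by 0.51 and Pkm by 0.47 log2. The lower genes were Hif1a itself (213 against 279 CPM, -0.39 ± 0.021 log2) and Pdk4, which restrains pyruvate oxidation (-0.23 ± 0.044 log2).

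The core letters of the hypoxia response element, ACGTG, were searched in the same way. The windows of the 3 genes with the largest differences are shown with ACGTG, on either strand, in capitals: Car9 at chr4:43506776-43507025 on the plus strand, Egln3 at chr12:54203875-54204124 on the minus strand and Slc16a3 at chr11:120948817-120949066 on the plus strand.
Car9: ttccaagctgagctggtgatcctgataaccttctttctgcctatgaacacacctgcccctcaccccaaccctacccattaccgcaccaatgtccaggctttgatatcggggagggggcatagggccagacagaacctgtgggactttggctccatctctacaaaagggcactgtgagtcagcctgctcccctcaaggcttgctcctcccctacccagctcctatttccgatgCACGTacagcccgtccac
Egln3: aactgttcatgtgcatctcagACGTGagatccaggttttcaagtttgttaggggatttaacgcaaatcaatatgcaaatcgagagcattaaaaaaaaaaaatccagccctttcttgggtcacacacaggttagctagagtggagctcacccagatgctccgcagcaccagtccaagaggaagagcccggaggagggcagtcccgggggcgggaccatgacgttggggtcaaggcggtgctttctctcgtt
Slc16a3: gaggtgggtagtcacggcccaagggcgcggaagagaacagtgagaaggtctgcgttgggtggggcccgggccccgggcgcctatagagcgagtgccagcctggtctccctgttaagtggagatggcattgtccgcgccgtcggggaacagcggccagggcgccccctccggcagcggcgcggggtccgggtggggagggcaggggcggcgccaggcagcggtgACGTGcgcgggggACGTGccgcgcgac

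The Car9 window held 1 match close to the start, the Egln3 window 1 match at its far end and the Slc16a3 window 2 matches close to the start. Over the list, 10 of 21 windows (47.6%) held the letters, against 21.8% of those of all tested genes. The list's share is fixed by which genes it holds, so it is not evidence from these libraries. For genes at least 2-fold higher in Itga5-High cells, 46 of 203 windows (22.7%) held them, near the share of tested genes. ACGTG is also the core of other elements, so the letters name no factor.

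Most adipocyte genes called were lower in Itga5-High cells, while Pparg and Fabp4 were not called. Pparg was at 45.9, 48.3 and 46.2 CPM in the Itga5-High libraries and at 43.5, 46.8 and 46.7 CPM in the Itga5-Low libraries, overlapping levels with a difference of 0.03 ± 0.048 log2 (adjusted p = 0.597 by edgeR). Fabp4, the fatty acid binding protein of fat cells, was at 3112, 3112 and 3131 against 3134, 3108 and 3090.1 CPM and was not called either (0.00 ± 0.0079 log2). Scaled by total counts, Fabp4 was called lower at -0.037 log2. In bulk RNA, fewer fat cells and less RNA of a gene per fat cell cannot be told apart.

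Cebpa, the factor that sustains the mature state, was at 275, 272 and 265 against 371, 361 and 376 CPM in Itga5-High and Itga5-Low libraries (-0.45 ± 0.019 log2). Adipoq, which encodes adiponectin, was at 257, 253 and 261 against 368, 372 and 366 CPM (-0.52 ± 0.018 log2). Lpl, the lipoprotein lipase, differed by -0.18 ± 0.0078 log2 and the droplet coat gene Plin1 by -0.16 ± 0.020 log2. Of 20 adipogenic transcription factors tested, 1 was higher, Cebpb, an early inducer of the program (289.8 against 209.6 CPM, 0.47 ± 0.020 log2), and 9 were lower (median -0.13 log2). Of all genes, 27.0% were higher and 26.5% lower. Against a fold of 1.2, 1 stayed higher and 3 lower, beside 8.64% of all genes each way. Among the 9 lower without that threshold were Klf15 (4.69 against 10.2 CPM, -1.14 ± 0.12 log2), Klf9 (-0.24 ± 0.026 log2) and Ebf1 (-0.24 ± 0.026 log2). Mature adipocyte markers had a summed level of 4683 to 4713 CPM in Itga5-High and 5469 to 5502 CPM in Itga5-Low libraries, with 7 of 9 lower and 1 higher, the complement protease Cfd (24.7 against 14.1 CPM, 0.80 ± 0.079 log2).

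Of the 4 Pparg transcripts in the table, 1 had shares that did not overlap between the groups. The transcript that encodes the fat-specific PPARg2 protein took 16.3%, 26.5% and 27.98% of the Pparg reads in the Itga5-High libraries and 40.5%, 31.2% and 38.5% in the Itga5-Low libraries. The shares of the other 3 transcripts overlapped. How reads were divided between transcripts is not given in the sources used here, so these shares are a description only.

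Lipid storage genes were more often lower than higher. On the lipid droplet and storage list, 12 of 18 tested genes were lower, against 26.5% of all genes, and 4 higher, against 27.0%. The median was -0.35 log2. Dgat2, which makes triglyceride, was at 32.2, 29.6 and 32.2 against 60.7, 56.3 and 55.9 CPM (-0.88 ± 0.051 log2). Cidec, which fuses droplets, was at 305, 307 and 305 against 453, 445 and 456 CPM (-0.56 ± 0.017 log2), and Gpat3 and Agpat2, earlier steps of glycerolipid synthesis, differed by -0.81 ± 0.066 and -0.47 ± 0.020 log2. Higher were the coat genes Plin2 (0.21 ± 0.014 log2) and Plin5 (11.5 against 7.86 CPM, 0.54 ± 0.10 log2), together with Cavin1 and Plin4, the last of which was not called with total counts.

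Of 9 lipolysis genes tested, 7 were lower and 0 higher (median -0.31 log2), with the triglyceride lipase Pnpla2 at 409 ± 2.50 against 579 ± 2.83 CPM (-0.50 ± 0.015 log2) and its coactivator Abhd5 at 85.8 ± 4.76 against 131 ± 3.95 CPM (-0.62 ± 0.033 log2). In fatty acid uptake and binding, 3 of 10 were higher and 3 lower (median 0.022 log2), near the shares of all genes, 27.0% and 26.5%. The acyl-CoA synthetase Acsl1 was at 418, 416 and 418 against 756, 766 and 753 CPM (-0.86 ± 0.014 log2) and the fatty acid transporter Slc27a1 at 94.3, 89.9 and 89.6 against 143, 144 and 147 CPM (-0.66 ± 0.030 log2). Against a fold of 1.2, none of the 3 higher members was called, and 2 of the 3 lower ones were. Of all genes, 8.64% were called each way at that fold.

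In fatty acid and triglyceride synthesis, 9 of 18 were lower, against 26.5% of all genes, and 5 higher, near the 27.0% of all genes (median -0.13 log2). Thrsp (-0.75 ± 0.044 log2), Me1 (-0.58 ± 0.019 log2), Pcx (-0.48 ± 0.019 log2) and Acacb (-0.47 ± 0.045 log2), which supply or regulate chain synthesis, were lower, and the desaturases Scd1 (0.14 ± 0.0073 log2), Scd2 (0.11 ± 0.010 log2) and Fads2 (0.13 ± 0.031 log2) were slightly higher. Cholesterol synthesis genes moved little, with 2 of 21 higher, 9 lower and a median of -0.062 log2.

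Genes of fuel breakdown in mitochondria were mostly lower by small amounts, and respiratory chain genes went both ways. Of all genes, 26.5% were lower and 27.0% higher. Of 21 fatty acid oxidation genes, 17 were lower and 2 higher (median -0.15 log2), among them the transcription factor Ppara (3.67 against 7.70 CPM, -1.05 ± 0.14 log2), named after its value was seen, the peroxisomal enzyme Ehhadh (13.002 against 23.1 CPM, -0.82 ± 0.081 log2) and the carnitine transferase Cpt1a (41.2 against 56.9 CPM, -0.47 ± 0.046 log2). Of 22 genes of branched-chain amino acid breakdown and the citrate cycle, 19 were lower and 1 higher (median -0.22 log2), with Mccc1 at 16.6, 14.4 and 12.99 against 23.03, 22.6 and 21.8 CPM (-0.60 ± 0.078 log2), Aldh6a1 at 49.95, 51.4 and 50.1 against 72.6, 75.4 and 73.7 CPM (-0.55 ± 0.041 log2) and Ivd at -0.50 ± 0.050 log2. Of 30 respiratory chain genes, 8 were higher and 8 lower, close to the background shares, with a median of 0.023 log2. Scaled by total counts, 5 were higher and 11 lower. Against a fold of 1.2, the lower calls came to 3 for fatty acid oxidation, 7 for branched-chain amino acids and the citrate cycle and 0 for the respiratory chain. Of all genes, 8.64% were called lower at that fold.

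Insulin signalling genes were called in all 15 cases, against 53.5% of all genes. Of the 15, 12 were lower and 3 higher (median -0.30 log2). Against a fold of 1.2, 2 stayed higher and 5 lower, beside 8.64% of all genes each way. Pik3r1, the regulatory subunit of PI3 kinase, was at 114, 116 and 114 against 202, 203 and 202 CPM (-0.82 ± 0.025 log2). The glucose transporters went opposite ways. Slc2a4, the insulin-responsive GLUT4, was lower (22.7 against 29.3 CPM, -0.37 ± 0.064 log2), while Slc2a1, the general transporter GLUT1, was higher (207 against 157 CPM, 0.40 ± 0.024 log2).

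Secreted adipocyte products were more often higher than lower. Of 15 adipokine genes tested, 8 were higher, against 27.0% of all genes, and 2 lower, against 26.5% (median 0.16 log2). After Rarres2, the largest differences were those of Angptl4, an inhibitor of lipoprotein lipase, at 545, 535 and 546 against 256, 247 and 251 CPM (1.11 ± 0.017 log2), and of Apln, the peptide apelin, at 119.6, 127 and 126 against 68.97, 72.5 and 67.02 CPM (0.83 ± 0.035 log2). Lower were Adipoq and Retn (-0.20 ± 0.065 log2), and the call of Retn was lost without Itga5-High library 1 (adjusted p = 0.0682 by edgeR) or without Itga5-Low library 1 (0.0665). Lep, the leptin gene, had no row in the table analysed here.

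Thermogenic and beige fat genes, which bear on the beige adipogenesis named in the study's title, gave 5 higher and 6 lower of 22 tested, near the background shares (median -0.11 log2). Ucp1, the uncoupling protein, was low and overlapping, at 4.43, 4.21 and 4.05 against 4.83, 4.11 and 5.65 CPM (-0.19 ± 0.15 log2, adjusted p = 0.335 by edgeR). Ppargc1a, the coactivator of mitochondrial biogenesis, was at 2.55, 1.85 and 2.15 against 3.78, 4.79 and 4.67 CPM (-0.99 ± 0.19 log2). Its relative Ppargc1b (12.3 against 21.1 CPM, -0.76 ± 0.082 log2) and the amino acid transporter Slc36a2 (31.1 against 55.5 CPM, -0.84 ± 0.052 log2) were lower as well, and the muscle-type cytochrome oxidase subunit Cox7a1 was higher (18.1 against 11.3 CPM, 0.67 ± 0.082 log2). The largest differences on the list were higher ones of genes under 10 CPM, named after their values were seen: Tnfrsf9 or CD137 (4.65 against 0.356 CPM, 3.68 ± 0.28 log2), Otop1 (8.35 against 2.62 CPM, 1.67 ± 0.15 log2) and Tbx1 (5.45 against 1.96 CPM, 1.48 ± 0.18 log2).

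**Figure D3:**
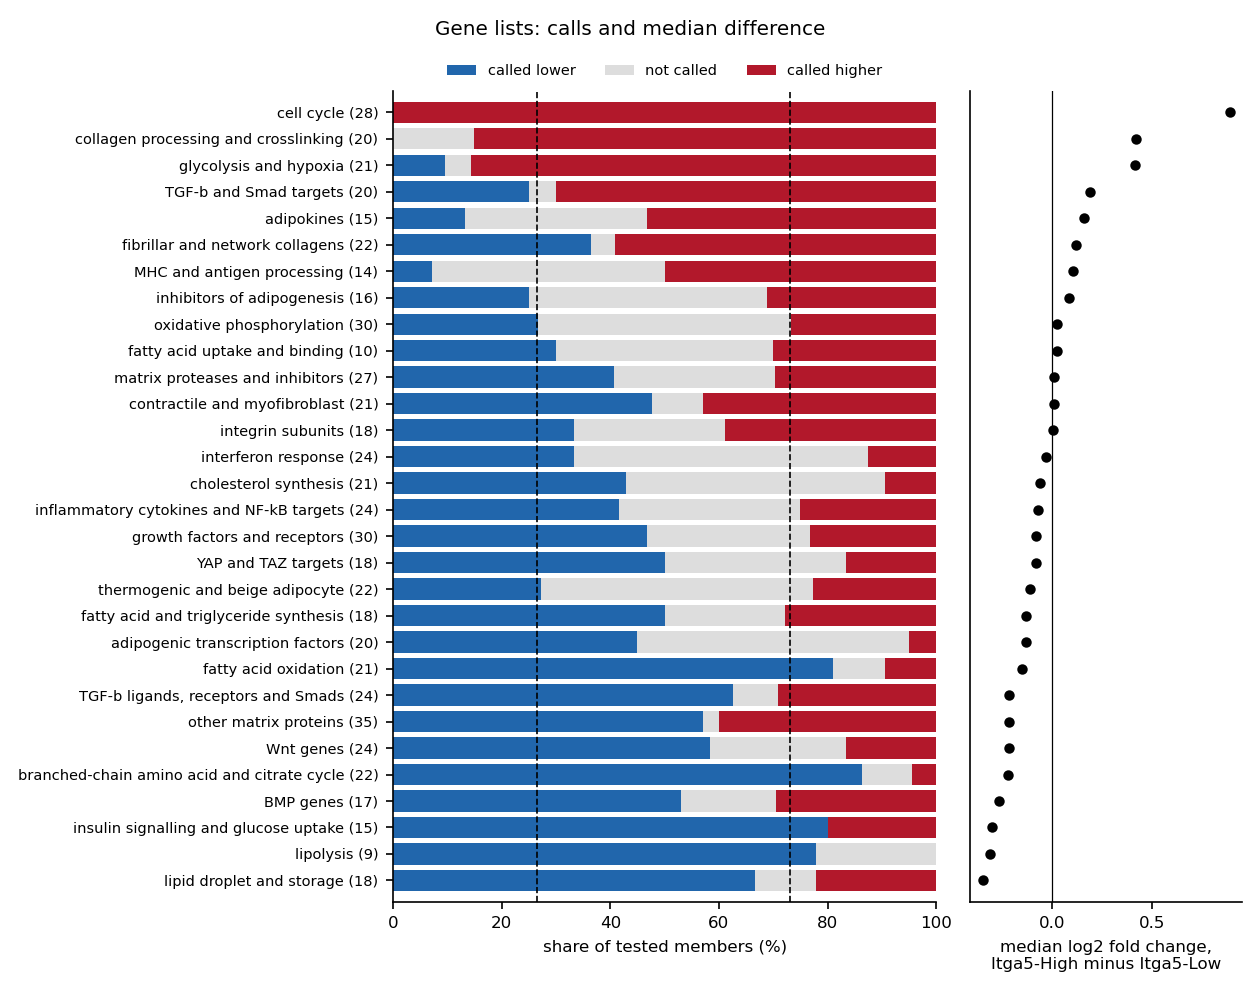
Left, share of the tested members of each of the 30 gene lists (number tested in brackets) that were called lower, not called and called higher in Itga5-High cells (%), with dashed lines at the shares of all tested genes, 26.5% lower from the left and 27.0% higher from the right; right, median log2 fold change of the list. The cell cycle list is red over its whole length. The lists of lipid droplet, lipolysis, insulin, BMP and citrate cycle genes lie at the bottom with mostly blue bars. The other lipid lists lie further up.

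Members of the TGF-b pathway went both ways, more of them lower. Of 24 ligands, receptors, Smads and binding proteins tested, 7 were higher, near the 27.0% of all genes, and 15 lower, against 26.5% (median -0.21 log2). Against a fold of 1.2, 5 stayed higher and 7 lower, beside 8.64% of all genes each way. Among the ligands, Tgfb1 was higher, at 87.5, 86.7 and 89.04 CPM in the Itga5-High libraries and at 59.2, 56.6 and 57.5 CPM in the Itga5-Low libraries (0.60 ± 0.038 log2), as were the activin chains Inhbb (311 against 204 CPM, 0.61 ± 0.020 log2) and Inhba (0.42 ± 0.026 log2). Tgfb3 (63.3 against 83.5 CPM, -0.39 ± 0.041 log2) was lower. The latent TGF-b binding protein Ltbp1 was higher (36.9 against 22.2 CPM, 0.73 ± 0.061 log2).

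Among the receptors, Tgfbr1 was slightly higher (0.09 ± 0.034 log2), Tgfbr2 lower (-0.24 ± 0.016 log2) and Acvr2b not called (0.18 ± 0.18 log2). The activin receptor Acvr2a was at 84.2, 81.3 and 77.4 against 127, 124 and 128 CPM (-0.64 ± 0.033 log2) and the coreceptor Eng, or endoglin, at 63.2, 66.8 and 65.04 against 96.8, 98.7 and 96.7 CPM (-0.59 ± 0.036 log2). Fst, the activin antagonist follistatin, was at 105, 104 and 107 against 172, 174 and 176 CPM (-0.73 ± 0.027 log2), while its relative Fstl3 was higher (79.8 against 56.05 CPM, 0.51 ± 0.040 log2). Smad3, the receptor-activated transducer, was at 32.4, 33.8 and 32.4 against 37.3, 39.7 and 38.2 CPM (-0.23 ± 0.054 log2), and the inhibitory Smad7 at 59.3, 62.4 and 60.99 against 51.4, 49.1 and 53.9 CPM (0.24 ± 0.044 log2). Both differences were small beside that of Tgfb1.

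Of 20 genes known to respond to TGF-b or Smads, 14 were higher, against 27.0% of all genes, and 5 lower, near the 26.5% of all genes (median 0.19 log2). Against a fold of 1.2, 5 stayed higher and 2 lower, beside 8.64% of all genes each way. Timp1 was at 1365, 1372 and 1359.9 CPM in the Itga5-High libraries and at 859, 880.4 and 877 CPM in the Itga5-Low libraries (0.65 ± 0.011 log2). Tgfbi (27.4 against 20.4 CPM, 0.43 ± 0.067 log2) was higher too, and Ccn2, or CTGF, only slightly (0.11 ± 0.013 log2). The cell cycle inhibitor Cdkn2b (40.6 against 58.5 CPM, -0.52 ± 0.046 log2), Fn1 and Ski (-0.24 ± 0.022 log2) were lower. Acta2, the smooth muscle actin of myofibroblasts, had overlapping libraries (1571, 1534 and 1565 against 1539, 1566 and 1541 CPM, 0.01 ± 0.010 log2), and scaled by total counts it was called lower at -0.033 log2. The contractile list as a whole gave 9 higher and 10 lower of 21 (median 0.0073 log2), from Actg2 (-0.50 ± 0.063 log2) to Acta1 (0.63 ± 0.085 log2).

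BMP genes gave 5 higher of 17, near the 27.0% of all genes, and 9 lower, against 26.5% (median -0.26 log2). The receptors Bmpr1a (-0.33 ± 0.030 log2) and Bmpr2 (-0.33 ± 0.036 log2) were lower. Of 18 YAP and TAZ pathway genes, 3 were higher, Axl (0.38 ± 0.014 log2), Ccn1 (0.32 ± 0.013 log2) and Ccn2, and 9 lower (median -0.083 log2), among them F3, or tissue factor (393 against 604 CPM, -0.62 ± 0.016 log2).

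Matrix genes differed in both directions. Of 22 collagen genes, 13 were higher, against 27.0% of all genes, and 8 lower, against 26.5% (median 0.12 log2). Against a fold of 1.2, 4 stayed higher and 6 lower, beside 8.64% of all genes each way. Col1a1 was at 26508, 26359 and 26177 CPM in the Itga5-High libraries and at 21206, 21036 and 21196 CPM in the Itga5-Low libraries (0.32 ± 0.0049 log2), and the fibril-nucleating chain Col5a3 at 653, 643 and 649 against 419, 412 and 421 CPM (0.64 ± 0.015 log2). The other chain of the same type I trimer, Col1a2, was marginally lower (-0.03 ± 0.0056 log2), and Col3a1 was lower, at 11355, 11420.2 and 11386 against 14089, 14089 and 14136 CPM (-0.31 ± 0.0054 log2). Lower by more were Col8a2 (8.65 against 22.8 CPM, -1.41 ± 0.086 log2) and Col11a1 (32.4 against 68.98 CPM, -1.09 ± 0.048 log2).

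Enzymes that modify and crosslink collagen were mostly higher. Of 20 tested, 17 were called higher, against 27.0% of all genes, and 0 lower, against 26.5% (median 0.42 log2). The lysyl oxidase relative Loxl3 was at 604, 589.7 and 598 against 328, 330.3 and 325 CPM (0.87 ± 0.016 log2) and Loxl2 at 1296, 1294 and 1283 against 771, 772 and 757 CPM (0.75 ± 0.011 log2). Tgm2, the tissue transglutaminase, was at 177, 173 and 173 against 101, 99.7 and 95.1 CPM (0.83 ± 0.028 log2). Lox itself differed by only 0.07 ± 0.0059 log2, and Adamts2, the type I procollagen N-proteinase, was not called (0.00 ± 0.011 log2) but was called lower with total counts at -0.036 log2.

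Several elastic fibre and small leucine-rich proteins were lower. On the list of 35 other matrix proteins, 14 were higher, against 27.0% of all genes, and 20 lower, against 26.5% (median -0.22 log2). Against a fold of 1.2, 5 stayed higher and 16 lower, beside 8.64% of all genes each way. Mfap4, a microfibril-associated protein, was at 40.2, 34.3 and 36.1 against 114, 109 and 111 CPM (-1.58 ± 0.043 log2), and Fbln1, or fibulin 1, at 126, 128 and 139.6 against 297, 289 and 290.3 CPM (-1.16 ± 0.025 log2). Fbn2, a fibrillin, was at 58.3, 55.3 and 56.1 against 125, 126 and 128 CPM (-1.16 ± 0.035 log2), and with Lum it completes the 4 lower genes named for the list. Higher were the matricellular genes Tnc, or tenascin C, at 1795, 1809 and 1779 against 1047, 1034 and 1050.2 CPM (0.78 ± 0.010 log2), and Thbs2 at 3097, 3090.0 and 3096 against 2017, 2017 and 2028 CPM (0.62 ± 0.0082 log2).

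Of 27 matrix proteases and inhibitors, 8 were higher, near the 27.0% of all genes, and 11 lower, against 26.5% (median 0.0092 log2). The aggrecanase Adamts5 was at 223, 215 and 222 against 434, 449 and 435 CPM (-0.997 ± 0.019 log2) and the stromelysin Mmp3 at 119.8, 109 and 119 against 231, 223 and 227 CPM (-0.96 ± 0.027 log2). The inhibitors parted, Timp3 being lower (518 against 775 CPM, -0.58 ± 0.014 log2) and Timp1 higher.

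**Figure D4:**
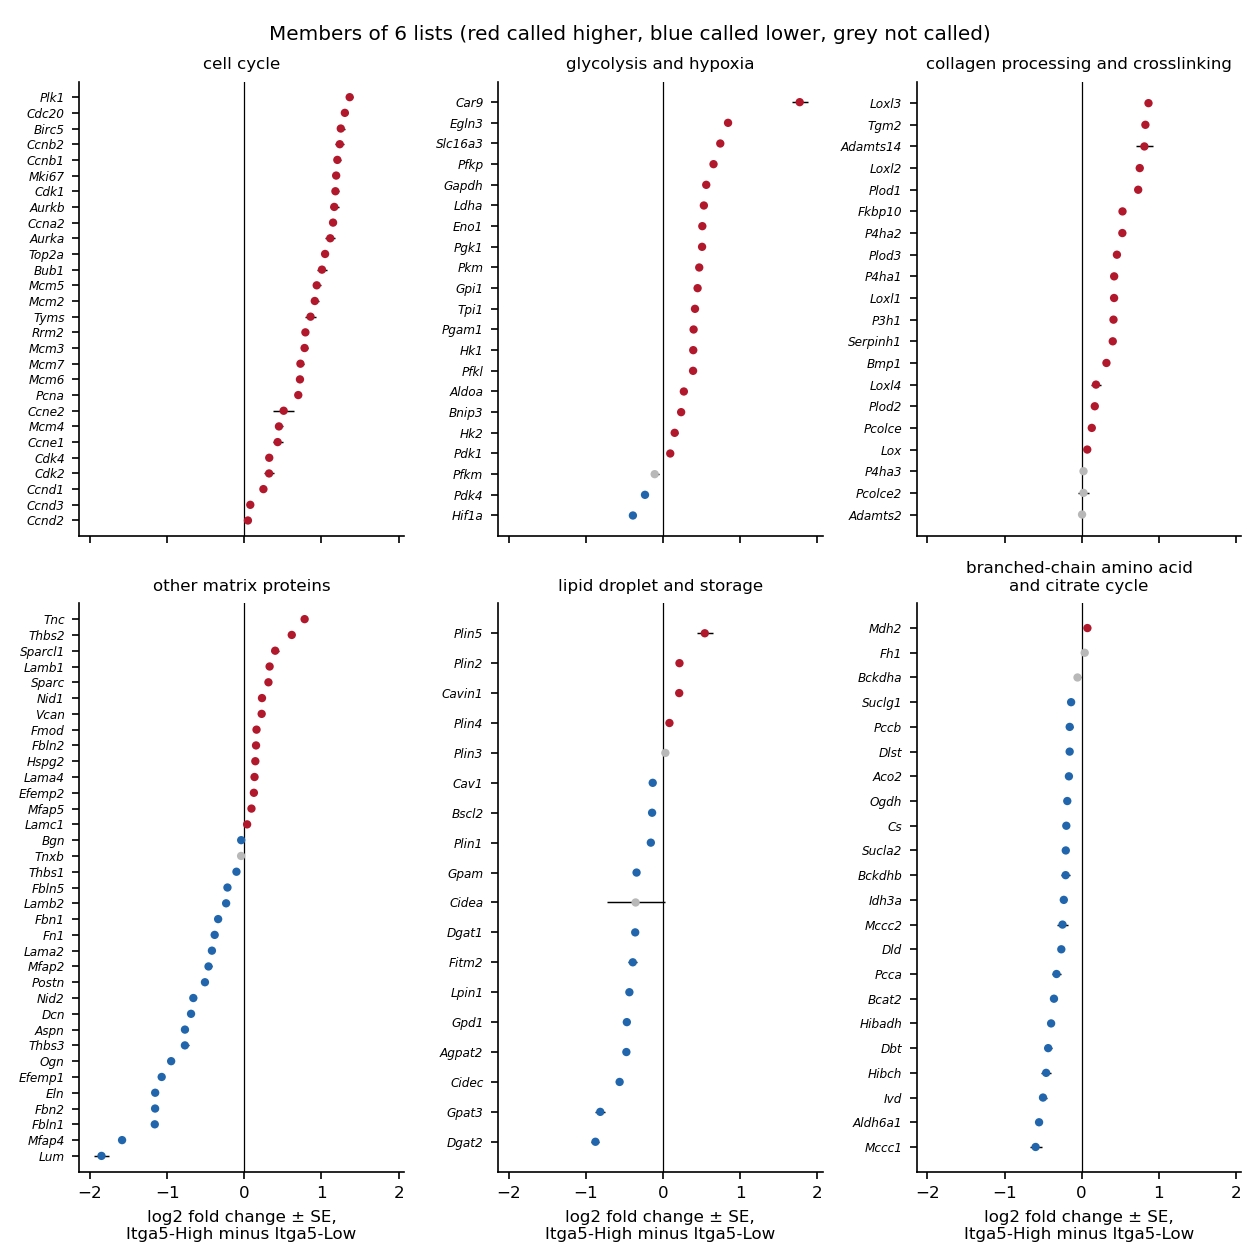
Log2 fold change ± SE (Itga5-High minus Itga5-Low) of every tested member of 6 lists, each list sorted by value; red points were called higher, blue lower and grey not called. The cell cycle panel lies wholly right of 0 and the glycolysis panel mostly so. The matrix panel spans both sides from Lum to Tnc, and the lipid droplet and citrate cycle panels lie mostly left of 0.

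Genes of Wnt and growth factor signalling were more often lower than higher. Of 24 Wnt pathway genes, 4 were higher, against 27.0% of all genes, and 14 lower, against 26.5% (median -0.22 log2). Only 2 members stayed higher without Itga5-High library 2, and none against a fold of 1.2, where 9 stayed lower. Of all genes, 8.64% were called each way at that fold. Sfrp1, a secreted Wnt antagonist, was at 1296, 1277 and 1302 CPM in the Itga5-High libraries and at 3139, 3153 and 3122 CPM in the Itga5-Low libraries (-1.28 ± 0.0090 log2), and Sfrp4 at 4.73, 5.56 and 6.12 against 15.4, 17.4 and 18.1 CPM (-1.65 ± 0.11 log2). The receptors Fzd4 (34.5 against 72.5 CPM, -1.07 ± 0.046 log2) and Fzd5 (33.8 against 60.2 CPM, -0.83 ± 0.048 log2) were lower.

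Of 30 growth factor genes, 7 were higher, near the 27.0% of all genes, and 14 lower, against 26.5% (median -0.082 log2). Igfbp4, which binds insulin-like growth factors, was at 233, 229 and 228 against 692, 666 and 677 CPM (-1.56 ± 0.017 log2), and Igf1 at 56.9, 59.8 and 56.02 against 132, 133 and 130.1 CPM (-1.19 ± 0.034 log2). Fgf10, a growth factor of fat precursors, was at 31.6, 31.6 and 31.8 against 56.5, 55.8 and 60.1 CPM (-0.86 ± 0.050 log2). Vegfa, a growth factor of vessels, was higher (338 against 258 CPM, 0.39 ± 0.019 log2).

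Among 16 inhibitors of adipogenesis, 5 were higher and 4 lower (median 0.084 log2), near the 27.0% and 26.5% of all genes. Dlk1, the preadipocyte surface factor Pref-1, was at 24.4, 23.8 and 28.1 against 16.7, 17.6 and 17.3 CPM (0.56 ± 0.072 log2) and Hes1, a Notch target, at 54.7, 55.9 and 56.8 against 43.1, 38.9 and 46.6 CPM (0.38 ± 0.050 log2). Zfp521, which opposes EBF1, was lower, at 36.3, 36.2 and 39.1 against 73.1, 70.4 and 73.1 CPM (-0.96 ± 0.045 log2).

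Immune genes did not move as one. Of 24 inflammatory genes, 6 were higher, near the 27.0% of all genes, and 10 lower, against 26.5% (median -0.073 log2). The chemokine Cxcl12 was at 418, 425 and 419 against 843, 845 and 849 CPM (-1.01 ± 0.014 log2) and the eosinophil attractant Ccl11 at 8.56, 7.75 and 9.60 against 21.9, 19.8 and 21.9 CPM (-1.29 ± 0.088 log2), while Ptgs2, or COX-2, was higher, at 18.8, 19.1 and 20.7 against 8.67, 8.27 and 10.4 CPM (1.10 ± 0.089 log2). Of 24 interferon response genes, 3 were higher and 8 lower (median -0.034 log2), with Ifit1 lower (8.13 against 15.04 CPM, -0.86 ± 0.10 log2) and Irf7 higher (18.5 against 13.7 CPM, 0.43 ± 0.080 log2).

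Of 14 MHC and antigen processing genes tested, 7 were higher, against 27.0% of all genes, and 1 lower, against 26.5% (median 0.10 log2). The class II chain H2-Ab1 was at 59.7, 60.6 and 62.2 CPM in the Itga5-High libraries and at 22.7, 19.4 and 21.9 CPM in the Itga5-Low libraries (1.51 ± 0.055 log2), and the class I genes H2-Q4 (44.3 against 23.2 CPM), H2-K1 and H2-D1 differed by 0.93 ± 0.056, 0.42 ± 0.017 and 0.39 ± 0.016 log2. B2m, their shared light chain, was not called (568 ± 8.10 against 561 ± 4.59 CPM).

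The summed level of the macrophage markers was 43.9 to 44.9 CPM in Itga5-High and 22.7 to 23.3 CPM in Itga5-Low libraries, and most of it was Csf1r, the receptor of colony stimulating factor 1, at 29.98, 29.7 and 28.8 against 10.3, 9.12 and 9.17 CPM (1.63 ± 0.077 log2). Of 12 macrophage markers only 4 passed the filter on low counts. Csf1r and Cd68 (2.96 against 1.96 CPM) were called higher, the latter with overlapping libraries, and Lyz2 (0.01 log2) and Cd14 (-0.11 log2) were not called. Adgre1, Mrc1, Itgam, C1qa, C1qb and C1qc lay under the filter, and Ptprc and Fcgr3 had no row in the table analysed here. The call of Cd68 was lost with DESeq2 and without Itga5-High library 1 or 2 or Itga5-Low library 1 or 3. Of the class II pathway, Cd74 lay under the filter. The part of macrophages in the MHC difference was not tested.

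Markers of other cell types stood as follows. The mesothelial sum was 101 to 104 against 42.2 to 45.2 CPM, nearly all of it Krt19 (100.3, 99.1 and 98.5 against 40.98, 39.9 and 39.5 CPM, 1.31 ± 0.040 log2), while Wt1 was not called and the other markers were under the filter or had no row. Pericyte and smooth muscle markers summed to 102 to 107 against 95.8 to 108 CPM, with 3 higher and 4 lower of 7. Schwann cell markers summed to 8.76 to 9.71 against 13.1 to 14.4 CPM, with no row for Sox10. The part of these cell types in any result was not tested. The 1 lymphocyte marker of 9 with a row was at or under 0.186 CPM in every library.

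The same genes were followed in undifferentiated preadipocytes to see how they responded to TGF-b1. There, 9517 of 14078 genes tested were called (67.6%), 33.4% higher and 34.2% lower. Over the 13011 genes tested in both comparisons, the shares were 35.1% and 32.7%. Of the 281 genes at least 2-fold lower in Itga5-High cells, 243 were tested in both, and 146 of them (60.1%) were called lower with TGF-b1 and 44 (18.1%) higher, with a median of -0.80 log2. Of the 274 genes at least 2-fold higher, 223 were tested in both, and 111 (49.8%) were lower with TGF-b1 and 38 (17.0%) higher, with a median of -0.18 log2. Over all of these genes, Spearman's rho between the 2 differences was 0.22 and Pearson's r 0.16, a description across genes, which are not replicates.

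Itga5 itself was higher with TGF-b1 (1.79 ± 0.015 log2), as were Col1a1 (0.73 ± 0.0062 log2) and Tgfb1 (0.92 ± 0.029 log2). Genes lower in Itga5-High cells differed in their response to the cytokine. C7 (-3.90 ± 0.18 log2), Scara5 (-4.06 ± 0.18 log2), Clec3b (-4.02 ± 0.43 log2) and Cd34 (-3.30 ± 0.050 log2) were lower with TGF-b1 as well. Cilp, by contrast, was higher with it (2.19 ± 0.065 log2). Among genes higher in Itga5-High cells, Nos2 (-3.01 ± 0.53 log2), Car9 (-2.94 ± 0.29 log2), Lrg1 (-2.28 ± 0.29 log2) and Rarres2 (-2.38 ± 0.12 log2) were lower with TGF-b1, and Notch4 was higher (0.80 ± 0.057 log2).

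**Figure D5:**
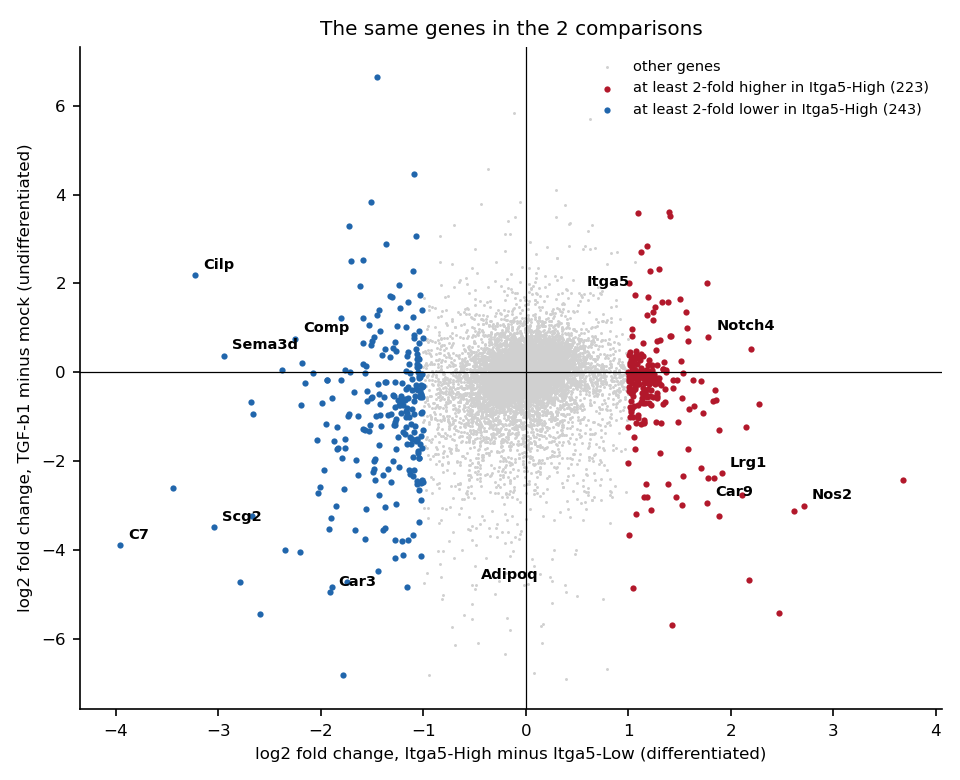
Log2 fold change with TGF-b1 in undifferentiated cells (vertical) against Itga5-High minus Itga5-Low in differentiated cells (horizontal) for the 13011 genes tested in both; red and blue points are genes at least 2-fold higher or lower in Itga5-High cells. Most blue points lie below 0, with a median of -0.80 log2, while Cilp lies above it, and the red points lie on both sides.

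The HFD mock libraries were compared with the same CD mock libraries, so the values are not independent of those with TGF-b1. They had 7566 of 14078 genes called (53.7%), 27.1% higher and 26.6% lower. Of the 243 genes at least 2-fold lower in Itga5-High cells, 134 (55.1%) were lower in HFD mock and 40 (16.5%) higher. Of the 223 at least 2-fold higher, 58 (26.0%) were lower and 65 (29.1%) higher, near the shares of all genes. Itga5 was higher in HFD mock (0.83 ± 0.016 log2), and Cd34 (-2.34 ± 0.042 log2), Clec3b (-2.12 ± 0.31 log2) and Car3 (-4.20 ± 0.27 log2) were lower.

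Strand was not stated for the counting, so reads of overlapping genes cannot be told apart. Among the 30 genes of the largest differences, this touches Rarres2, which overlaps Lrrc61, Car9, which overlaps Arhgef39 and Tpm2, Prl2c4, which overlaps Prl2c3, H2ac24, which overlaps other histone genes, Car3, which overlaps Gm41999, and Cd34, which overlaps Gm16897. Other genes given values above also overlap a neighbour with counts: Cdc20 (Elovl1), Slc16a3 (Csnk1d), Pfkp (Pitrm1), Timp1 (Syn1), Timp3 (Syn3), Acvr2a (Orc4), Eng (Fpgs), Fstl3 (Prss57), Loxl3 (Htra2), Adamts2 (Gm51860), Fzd4 (Tmem135), Itga1 (Pelo), Aldh6a1 (Bbof1), Mccc1 (Mccc1os), Me1 (A330041J22Rik), Pcx (Lrfn4), Slc2a1 (Gm12867), Ccn2 (Gm15270), Cdkn2b (Gm12610) and Ifit1 (Ifit1bl1). The few genes added after their values were seen were not searched for overlaps.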

How the data were processed

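The authors used fastp, STAR, featureCounts and genome build mm10, per the submitters' processing notes. Tool versions, strandedness and how reads were split between transcripts are not given there. The values deposited by the authors are estimated counts per RefSeq transcript, not scaled to library size: 29641 transcripts of 15482 symbols for the differentiated cells. Values were summed per symbol and rounded. Low genes were removed with filterByExpr (minimum count 10) and the rest tested in R 4.3.3 with edgeR 4.0.16 (TMM scaling, quasi-likelihood test, two-sided) on these 6 libraries alone. The undifferentiated cells were fitted separately on 12 libraries, which included the 3 given TGF-b1 with SB431542. SEs come from a fit with dispersions of at least 1e-04, since 1746 genes had smaller ones. DESeq2 1.42.0 was an alternative.

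Gene lists, members and named genes were chosen with earlier results of these data known. Named were 20 check genes, the 15 largest called, non-overlapping differences each way in genes whose higher group averaged 10 CPM or more (unnamed gene models passed over), and up to 4 called members per list and direction at that level plus up to 2 not called; range ends and a few others were added after their values were seen. Of check genes and largest differences, transcript shares were computed. Promoter windows came from RefSeq. Libraries were not paired across groups. Some named genes are not reported here.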

Additional observations from a re-analysis of the deposited data

How the results depend on the processing

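The counts of genes called for Itga5-High against Itga5-Low stayed within 1.5 times the main values under other scalings, no filter, DESeq2, a dispersion floor and leaving out any library, except as follows. A test against a 1.2-fold difference (glmTreat) called 2327 genes, 1164 higher and 1163 lower. With a filter of 10 CPM in 3 libraries, 118 genes were at least 2-fold higher and 96 at least 2-fold lower, of fewer genes tested. The same 1.2-fold test called 5454 genes for TGF-b1 and 3471 for HFD mock. With a replicate block, 7063 genes were called against 7199 without; same-numbered libraries did not deviate together (correlations of 0.0011 to 0.014). Leaving out 1 library gave 6454 to 6738 called genes. Scaling by total counts moved the median of all genes to -0.044 log2 and the higher share of calls from 50.5% to 41.7%, and it turned Acta2 (-0.033), Adamts2 (-0.036) and Fabp4 (-0.037 log2) from not called to called lower; the cause was not tested. Of the 302 named genes, 301 kept call and direction with DESeq2 and 280 with total counts, while 72 lost their call in the 1.2-fold test. Members called higher on the oxidative phosphorylation list fell from 8 to 5 with total counts. Depth limits small differences of low genes: 79.1% of genes with a mean under 1 CPM were not called, against 37.8% of those at 10 CPM or more, although of 92 genes under 1 CPM with fitted differences of at least 2-fold only 3 were not called.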

Other observations

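Groups of related genes that the lists above do not hold as groups were described after their values had been seen, so their counts are descriptions. Some members, such as H2-Ab1, Adamts5 and Cfd, are also on those lists. The shares of all genes were 27.0% higher and 26.5% lower. Of 83 cytosolic ribosomal protein genes, 77 were called higher in Itga5-High cells and 0 lower, with a median of 0.20 log2 and no member past 2-fold. Scaled by total counts, 73 were higher and 1 lower. Of 46 proteasome subunits and assembly factors, 31 were higher and 1 lower (median 0.16 log2). The centromere proteins, which hold the kinetochore, went with the mitotic genes, with 19 of 21 higher, 0 lower and a median of 0.82 log2. Of 34 kinesins, 16 were higher and 10 lower (median 0.10 log2). At least 2-fold higher were 11, from Kif11 (1.01 log2) to Kif23 (1.28 log2), all motors known from the spindle or cytokinesis. Among the other members, Kif18a (0.78 log2) and Kifc5b (0.73 log2) were higher. Kif1a (0.13 log2), Kif1c (0.07 log2) and Kifc3 (0.23 log2) were slightly higher. The lower members included Kif5b (-0.19 log2), Kif1b (-0.34 log2) and Kif13b (-0.75 log2).

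Of 19 complement genes, 15 were lower and 2 higher, with a median of -0.54 log2. Besides C7, the classical pathway protease C2 was at 29.5 ± 1.08 against 87.7 ± 0.557 CPM (-1.57 ± 0.045 log2) and Serping1, the C1 inhibitor, at 669.8 ± 1.08 against 953 ± 6.96 CPM (-0.51 ± 0.012 log2). The ABCA lipid transporters were lower in 8 of 10 and higher in 0 (median -0.69 log2), with Abca1, the cholesterol exporter, at 129.9 ± 2.03 against 189 ± 2.79 CPM (-0.54 ± 0.025 log2) and Abca8a at 5.77 ± 0.275 against 18.3 ± 0.153 CPM (-1.67 ± 0.098 log2). Of 15 ADAMTS proteases, 9 were lower and 2 higher (median -0.41 log2).

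Of all 24 tested genes with an H2- symbol, 16 were higher and 1 lower (median 0.62 log2), with near-identical members among them. The 4 proliferin genes were all higher, the most abundant being Prl2c2 (172 ± 6.33 against 94.1 ± 1.04 CPM, 0.87 ± 0.029 log2), again with near-identical copies. Of 14 genes of retinoic acid supply and sensing, 7 were lower and 2 higher. The aldehyde dehydrogenases Aldh1a1 (-0.48 log2), Aldh1a2 (-1.94 log2), Aldh1a3 (-0.75 log2) and Aldh1a7 (-1.02 log2) were lower, and the binding protein Crabp1 was higher (5.03 against 1.36 CPM, 1.89 ± 0.20 log2).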
